A study of Mus musculus with 8 samples.

Results

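The genes of the cell's antioxidant defence were followed in mesenchymal stem cells (MSCs, stromal cells that can form bone, fat and cartilage) from mouse bone, kept at low or at atmospheric oxygen. The set holds 37 genes of the 53465 in the count table, chosen by name for their known roles: the NRF2 transcription factor with its regulators and target genes, glutathione and thioredoxin enzymes, superoxide dismutases, catalase, peroxidases, and the pentose phosphate enzymes that supply NADPH. The rule used no measured value, although earlier results of these data were known when it was made. All 37 passed the filter on low counts and were tested among 14369 genes. RNA-seq was made from 4 hypoxia samples, cultured at 2% oxygen, and 4 normoxia samples, cultured at 21% oxygen. Both groups came from wild-type C57BL/6N male mice aged between 3 and 5 months and carried no genetic change. MSCs were sorted as CD45-, Ter-119-, Sca-1+ and CD140a+ cells, and the study describes dividing the sorted population between the oxygen levels for 7 days. Both the labels and the methods of the study place the sort on day 12, a drawing in the study gives an earlier day, and the labels name both oxygen levels for the culture before the sort, so the exact order of sort and oxygen change is not settled by these sources. The comparison asks what oxygen at the atmospheric level does to the transcripts of cells whose niche is poor in oxygen.

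NRF2, encoded by Nfe2l2, is held in the cytoplasm and handed to the proteasome by the adaptor protein KEAP1. Electrophiles and oxidants modify cysteines of KEAP1, after which NRF2 builds up, enters the nucleus, pairs with small MAF proteins and binds antioxidant response elements, where BACH1 competes with it as a repressor. Its known targets make glutathione, reduce thioredoxin and quinones and break down haem, and glutathione peroxidases and peroxiredoxins draw their electrons from NADPH, mostly through glutathione or thioredoxin, whereas catalase needs no such donor.

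The antioxidant response element core was looked for in promoter windows because it is the sequence NRF2 binds. RefSeq promoter windows on GRCm38.p6, from 250 bases before to 50 bases after a transcription start, were at hand for 31 of the 37 genes, and the windows of Hmox1, Gclc, Gsr, Sod3, Prdx6 and Gsta4 were not among them. The core TGACNNNGC was searched on both strands (GCNNNGTCA on the other strand) and was present in 9 of these 31 genes (29.0%), against 14.0% of all genes with a window and 16.9% of those tested. It was found for 4 of 8 genes called higher in normoxia (Gclm, Nfe2l2, Srxn1 and Txnrd1), 1 of 9 called lower (Sod1) and 4 of 14 not called (G6pdx, Mgst1, Pgd and Prdx1). The stretches below hold the match of 4 called genes, Sod1 the lower among them, and of Prdx1, with the core in capitals, read along the strand of the gene. They lie at chr10:82859084-82859152 on the plus strand for Txnrd1, chr3:122245393-122245461 on the plus strand for Gclm, chr2:75704865-75704913 on the minus strand for Nfe2l2, chr16:90220676-90220744 on the plus strand for Sod1 and chr4:116685436-116685504 on the plus strand for Prdx1.
Txnrd1: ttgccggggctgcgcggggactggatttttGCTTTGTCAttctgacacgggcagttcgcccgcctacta
Gclm: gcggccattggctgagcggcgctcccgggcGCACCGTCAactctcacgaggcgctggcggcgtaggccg
Nfe2l2: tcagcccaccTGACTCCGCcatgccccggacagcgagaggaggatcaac
Sod1: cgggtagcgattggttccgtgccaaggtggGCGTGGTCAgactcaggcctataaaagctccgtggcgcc
Prdx1: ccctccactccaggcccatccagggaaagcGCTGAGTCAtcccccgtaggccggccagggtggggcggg
The match began 92 bases before the start used for Txnrd1, which is an internal start of that gene, 134 before that of Gclm, 240 before that of Nfe2l2, 56 before that of Sod1 and 133 before that of Prdx1. A letter match describes these windows and does not show binding. The hypoxia response element core ACGTG, searched on both strands, was present in 8 of the 31 genes (25.8%), against 21.8% of all genes with a window and 28.9% of those tested.

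Total counts lay between 12898291 and 13433824 in 7 samples and reached 25132141 in hypoxia replicate 1, whose values carry less counting error. Markers of the sorted MSCs were present, since all 10 of the list were tested and their summed level was 4410 to 5270 CPM (counts relative to the TMM-scaled library size) in hypoxia and 4670 to 5050 CPM in normoxia. Blood cell and macrophage markers were also present, all 10 of them tested, with a summed level of 602, 853, 1270 and 1000 CPM in hypoxia replicates 1 to 4 and of 674, 807, 1290 and 955 CPM in normoxia replicates 1 to 4. Of these, Mrc1 and C1qa fell and Lyz2 rose, and the paired fit with the replicate block called 7 lower (Cd68, Csf1r, Itgam, Fcer1g, Tyrobp, Mrc1 and C1qa) and Lyz2 higher. Lyz2 alone carried the near-equal sums, since the other 9 markers summed to 341, 512, 835 and 624 CPM in hypoxia and to 274, 341, 601 and 419 CPM in normoxia, lower in normoxia for every replicate number. Of the MSC markers 1 was lower and 3 were higher, and 5 and 4 with the replicate block. Ptprc, which encodes the CD45 that the sort selected against, had 8.28 to 16.9 CPM in hypoxia and 10.1 to 19.0 CPM in normoxia. None of the 7 neutrophil and 7 erythroid markers was tested, and the haemoglobin genes Hba-a1, Hba-a2, Hbb-bs and Hbb-bt had no count. Endothelial markers summed to at most 2.65 CPM, with Emcn at 0.

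High oxygen moved the set in both directions. In normoxia, 13 of the 37 genes were higher, 9 were lower and 15 were not called, where a call is an adjusted p under 0.05 in limma-trend, fitted over all genes tested. The largest rises were those of Nqo1, Gsta4, Gclc, Txnrd1 and Srxn1, whereas 7 of the 9 falls were peroxidases of the glutathione peroxidase and peroxiredoxin families. A correction for GC content and transcript length ended 5 of these 7 calls (Gpx1, Gpx3, Gpx4, Gpx7 and Prdx2) and kept Prdx3 and Prdx4. Of all genes tested, 18.0% were called higher and 16.5% lower, against 35.1% and 24.3% of the set. Hypoxia and normoxia samples were fully apart for 12 genes of the set that were higher (17.1% of all genes tested) and 7 that were lower (15.5%). The median log2 change of the set was -0.025, and that of all genes tested was 0.0049. All log2 changes are normoxia minus hypoxia, and all adjusted p-values are from limma-trend unless another test is named.

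The replicate block, which compares samples with the same number, gave 14 higher and 10 lower genes, where 23.3% and 22.7% of all genes tested were called. Prdx1 (higher, adjusted p = 0.010) and Gstm1 (lower, adjusted p = 0.0034) joined the calls in this paired fit, and no call was lost. Scaling by total counts only, without TMM factors, gave 14 higher and 6 lower genes in the set. With it, 25.1% of all genes tested were called higher and 11.0% lower, and the share of all calls that were lower went from 47.8% to 30.4%.

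**Figure D1:**
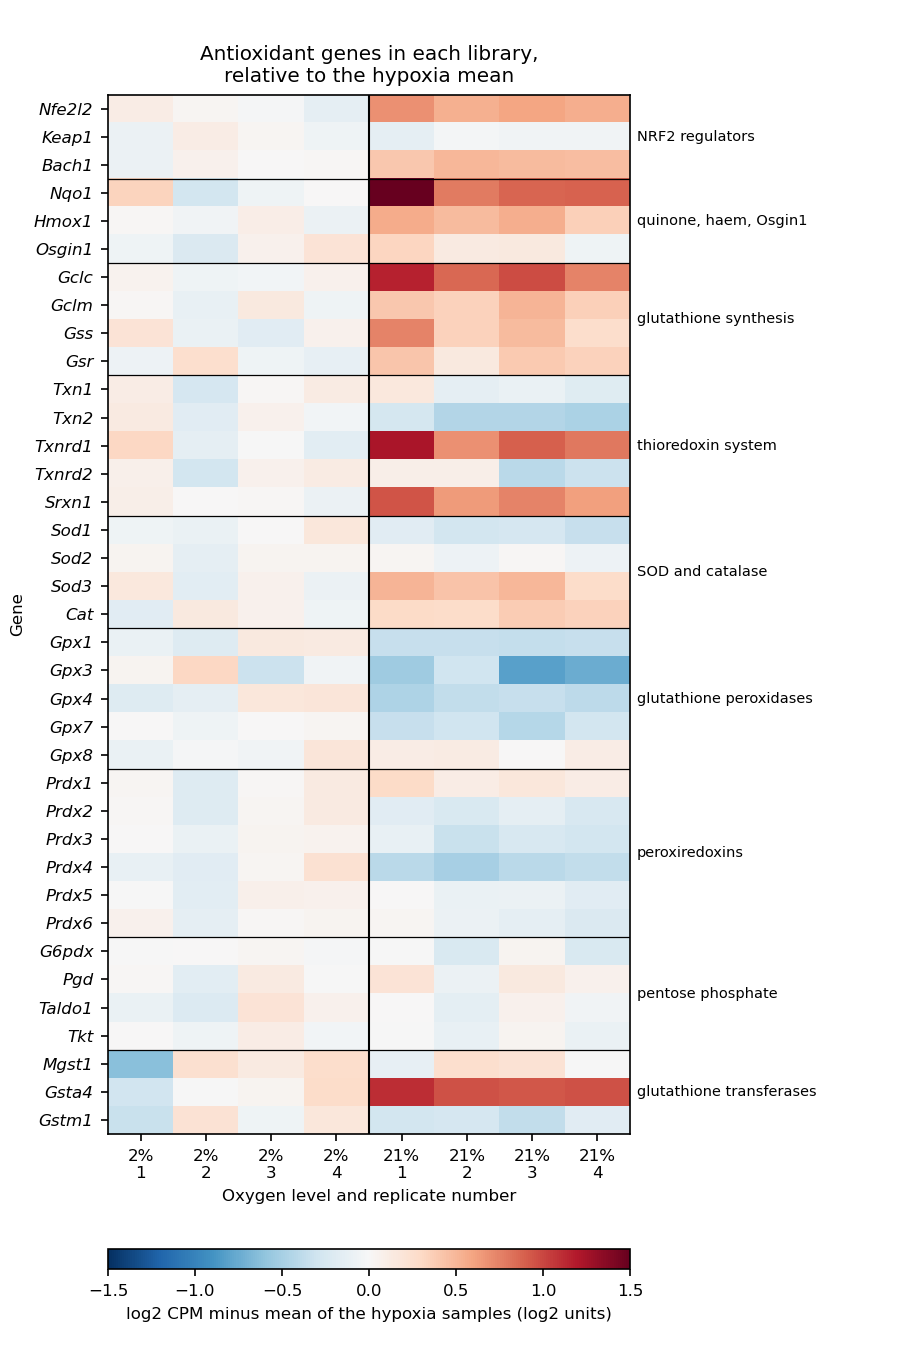
Log2 CPM of each of the 37 genes (rows, grouped by role) in each of the 8 samples (columns, oxygen level and replicate number), after subtracting the mean of the 4 hypoxia samples; red is higher and blue is lower, in log2 units. Nfe2l2, Nqo1, Gclc, Txnrd1, Srxn1 and Gsta4 are red in all 4 normoxia samples, and Gpx1, Gpx4, Gpx7 and Prdx4 are blue in all 4.

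Among the regulators, the factor and its competitor rose and the inhibitor did not pass the test. Nfe2l2 (chr2:75675513-75704641, minus strand), which encodes NRF2, had 94.5, 89.1, 86.0 and 79.1 CPM in hypoxia replicates 1 to 4 and 141, 126, 131 and 128 CPM in normoxia replicates 1 to 4. The groups were apart, with every normoxia sample above every hypoxia sample. Its log2 change was 0.59 ± 0.066 (SE, n = 4 per group, adjusted p = 0.00011), a 1.51-fold rise. Bach1 (chr16:87698945-87733346, plus strand), the repressor that occupies the same elements, rose from 26.0, 28.9, 27.8 and 28.1 CPM to 36.9, 39.1, 38.6 and 38.1 CPM. Neither group spread much around its mean and they did not overlap (log2 change 0.46 ± 0.065, adjusted p = 0.00035). Keap1 (chr9:21229730-21239361, minus strand) had 48.5, 56.0, 52.8 and 49.8 CPM in hypoxia and 47.3, 50.9, 49.9 and 49.9 CPM in normoxia. These ranges overlapped, and its log2 change was -0.06 ± 0.065 (adjusted p = 0.49).

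Of the stress enzymes that are textbook NRF2 targets, Nqo1 and Hmox1 rose. Nqo1 (chr8:107388225-107403206, minus strand), a quinone reductase that uses NADPH or NADH, had 41.2, 27.0, 31.1 and 32.7 CPM in hypoxia and 93.1, 56.5, 59.9 and 60.4 CPM in normoxia. The groups were apart, and normoxia replicate 1 stood above the other normoxia samples. With a log2 change of 1.01 ± 0.16 (adjusted p = 0.00055, 2.02-fold) it was the largest change of the set, and leaving out each sample in turn gave log2 changes from 0.84 to 1.13, all called. Hmox1 (chr8:75093621-75100589, plus strand), the haem oxygenase that opens the haem ring, had 300, 287, 318 and 277 CPM in hypoxia and 437, 410, 431 and 379 CPM in normoxia. Again no hypoxia sample reached a normoxia sample (log2 change 0.49 ± 0.065, adjusted p = 0.00025). Macrophages also express Hmox1, and their markers moved between the groups, Lyz2 upward and the sum of the other 9 downward in normoxia, from 341 to 835 CPM in hypoxia and from 274 to 601 CPM in normoxia. The part of such cells in the Hmox1 levels was not tested, and in bulk RNA fewer cells of a type and less RNA per cell cannot be told apart. Osgin1, an oxidative stress induced growth inhibitor, ranged from 5.62 to 7.63 CPM in hypoxia and from 6.26 to 8.24 CPM in normoxia and was not called (log2 change 0.13 ± 0.13, adjusted p = 0.49).

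All 4 genes of glutathione synthesis and recycling rose in normoxia. Gclc (chr9:77754535-77794485, plus strand), the catalytic subunit of glutamate-cysteine ligase, which carries out the rate-limiting step, had 16.1, 14.8, 15.1 and 16.3 CPM in hypoxia and 35.0, 28.4, 30.8 and 26.2 CPM in normoxia. The hypoxia samples were tightly grouped and all lay far below the normoxia samples. The log2 change was 0.93 ± 0.095 (adjusted p = 7.4e-05, 1.91-fold), the smallest adjusted p of the set. Gclm (chr3:122245557-122270732, plus strand), the modifier subunit of the same enzyme, had 72.1, 65.9, 79.4 and 68.3 CPM in hypoxia and 95.0, 90.8, 101 and 91.9 CPM in normoxia. The groups did not overlap, and the log2 change was 0.41 ± 0.069 (adjusted p = 0.00093). The correction for GC content and length gave 0.20 and ended the Gclm call (adjusted p = 0.076). Gss, the glutathione synthetase that adds glycine, had 24.2, 19.6, 18.7 and 22.1 CPM in hypoxia and 35.2, 26.7, 29.2 and 25.2 CPM in normoxia. Its groups were apart by a narrow gap (log2 change 0.45 ± 0.11, adjusted p = 0.0097). Exons of Gss overlap those of Acss2 on the opposite strand, which had 1027 counts over all samples against 2932 for Gss and a log2 change of -0.69. Whether the counting used strand is not stated, so reads of the shared stretch cannot be told apart.

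Gsr, the reductase that returns oxidised glutathione to its reduced form with NADPH, had 17.3, 21.8, 17.6 and 16.8 CPM in hypoxia and 24.5, 20.3, 24.0 and 23.4 CPM in normoxia. Hypoxia replicate 2 stood above its group and normoxia replicate 2 below its own, so that the groups overlapped through these samples. The log2 change was 0.33 ± 0.10 (adjusted p = 0.025). The call was lost without hypoxia replicate 3 (adjusted p = 0.066), hypoxia replicate 4 (0.073), normoxia replicate 1 (0.072), normoxia replicate 3 (0.072) or normoxia replicate 4 (0.064). In the 8 fits that left out a sample, the log2 change stayed between 0.29 and 0.41. These 8 fits were unpaired, and the paired fit with the replicate block kept the call of Gsr (adjusted p = 0.0064).

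Of the thioredoxin system, Txnrd1 and Srxn1 rose, Txn2 fell, and Txn1 and Txnrd2 were not called. Txnrd1 (chr10:82833951-82897712, plus strand), the cytosolic selenoenzyme that reduces thioredoxin with NADPH, had 98.7, 73.0, 79.4 and 71.4 CPM in hypoxia and 187, 128, 149 and 138 CPM in normoxia. The groups were apart, with replicate 1 the highest in both (log2 change 0.90 ± 0.12, adjusted p = 0.00027, 1.86-fold). Srxn1 (chr2:152105516-152111376, plus strand), the sulfiredoxin that repairs over-oxidised peroxiredoxins, had 50.8, 47.7, 48.2 and 44.7 CPM in hypoxia and 91.9, 74.5, 79.7 and 72.8 CPM in normoxia. All normoxia samples lay clear above the hypoxia samples (log2 change 0.73 ± 0.078, adjusted p = 9.9e-05). Txn2, the mitochondrial thioredoxin, moved the other way, from 129, 105, 124 and 115 CPM in hypoxia to 98.0, 86.4, 86.9 and 85.1 CPM in normoxia. Its groups did not overlap (log2 change -0.40 ± 0.074, adjusted p = 0.0016). Txn1, the cytosolic thioredoxin, was among the most abundant transcripts of the set and ranged from 155 to 199 CPM in hypoxia and from 162 to 204 CPM in normoxia. It was not called (log2 change -0.06, adjusted p = 0.63), nor was Txnrd2, the mitochondrial reductase, at 5.62 to 7.40 CPM and 5.12 to 7.28 CPM (log2 change -0.13, adjusted p = 0.56). Txnrd2 had the fewest counts of the set, 771 over all samples.

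Of the superoxide dismutases, which turn superoxide into hydrogen peroxide, Sod3 rose, Sod1 fell and Sod2 was not called, and catalase, which breaks the peroxide down in peroxisomes, rose. Sod1 (chr16:90220754-90226329, plus strand), the cytosolic copper-zinc enzyme, had 153, 149, 161 and 180 CPM in hypoxia and 142, 132, 134 and 126 CPM in normoxia. Every normoxia sample lay below every hypoxia sample, with the gap narrow (log2 change -0.26 ± 0.068, adjusted p = 0.0099). Scaling by total counts only gave a log2 change of -0.18 and ended the call (adjusted p = 0.075). Sod2 (chr17:13006846-13040063, plus strand), the mitochondrial manganese enzyme, had 52.2, 46.5, 52.3 and 52.1 CPM in hypoxia and 51.9, 48.0, 51.5 and 48.1 CPM in normoxia. These overlapped almost fully, and the log2 change was -0.03 ± 0.065 (adjusted p = 0.80). Sod3, the secreted enzyme, had 777, 621, 729 and 655 CPM in hypoxia and 987, 933, 983 and 835 CPM in normoxia. It was the most counted transcript of the set, and its groups did not overlap (log2 change 0.43 ± 0.083, adjusted p = 0.0020). Cat (chr2:103453849-103485160, minus strand) had 76.6, 95.5, 90.5 and 82.7 CPM in hypoxia and 105, 104, 112 and 109 CPM in normoxia. The normoxia samples were tightly grouped above the hypoxia samples (log2 change 0.32 ± 0.071, adjusted p = 0.0044).

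Of the 5 members of the glutathione peroxidase family, named for reducing peroxides at the expense of glutathione, 4 fell and none rose. Transcripts of these 4 have GC contents of 55.5% to 60.2%, and a correction for GC content and length, given with its values after the families, ended the 4 calls. Gpx1, the abundant selenoenzyme of cytosol and mitochondria, had 287, 269, 340 and 336 CPM in hypoxia and 241, 241, 238 and 242 CPM in normoxia. The normoxia samples were nearly equal and lay below all hypoxia samples (log2 change -0.35 ± 0.075, adjusted p = 0.0039). Gpx4, which reduces lipid peroxides in membranes and guards against ferroptosis, had 187, 193, 241 and 241 CPM in hypoxia and 155, 165, 169 and 163 CPM in normoxia. Its groups did not overlap either, and hypoxia replicates 3 and 4 were the highest (log2 change -0.39 ± 0.085, adjusted p = 0.0039). Gpx3, the secreted peroxidase, had 397, 478, 309 and 372 CPM in hypoxia and 267, 313, 218 and 230 CPM in normoxia. The groups overlapped, because hypoxia replicate 3 was just below normoxia replicate 2, yet within each replicate number normoxia was the lower sample. The log2 change of -0.59 ± 0.13 (adjusted p = 0.0044) was the largest fall of the set.

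Gpx7, a peroxidase of the endoplasmic reticulum that passes oxidising equivalents to protein folding, had 53.6, 50.9, 53.4 and 54.5 CPM in hypoxia and 42.1, 43.2, 39.3 and 44.2 CPM in normoxia. The groups were apart with little spread in either (log2 change -0.33 ± 0.062, adjusted p = 0.0017). Its relative Gpx8 in the same compartment ranged from 113 to 137 CPM and from 122 to 131 CPM and was not called (log2 change 0.08, adjusted p = 0.36).

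The 6 peroxiredoxins, thiol peroxidases of which most are kept reduced by thioredoxin, had 3 falls and no rise. Prdx4 (chrX:155323918-155340754, minus strand), the form of the endoplasmic reticulum, had 94.2, 90.3, 104 and 119 CPM in hypoxia and 76.4, 71.8, 76.9 and 78.7 CPM in normoxia. Its groups were well apart (log2 change -0.42 ± 0.082, adjusted p = 0.0023). Prdx3, the mitochondrial form, had 75.7, 70.8, 78.1 and 78.7 CPM in hypoxia and 70.5, 60.5, 64.3 and 63.0 CPM in normoxia. The highest normoxia sample came just under the lowest hypoxia sample (log2 change -0.23 ± 0.065, adjusted p = 0.016), and scaling by total counts only ended the call (log2 change -0.14, adjusted p = 0.11). Prdx2, a cytosolic form, had 204, 176, 204 and 221 CPM in hypoxia and 178, 171, 182 and 170 CPM in normoxia. These groups overlapped, since hypoxia replicate 2 lay within the normoxia range (log2 change -0.20 ± 0.068, adjusted p = 0.042).

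The Prdx2 call held in 1 of the 8 fits that left out a sample, the fit without hypoxia replicate 2 (adjusted p = 0.0052). Its adjusted p was 0.062 without hypoxia replicate 1, 0.097 without hypoxia replicate 3, 0.12 without hypoxia replicate 4, and 0.054, 0.088, 0.059 and 0.089 without normoxia replicates 1 to 4. The call was also lost with total counts only (log2 change -0.11) and with no filter on low counts (adjusted p = 0.075). These fits were unpaired, and the paired fit with the replicate block kept the call (adjusted p = 0.0044). Prdx2 shares exon sequence with Rnaseh2a and Junb on the opposite strand. Prdx1, the most counted peroxiredoxin, ranged from 355 to 445 CPM in hypoxia and from 438 to 496 CPM in normoxia. The groups overlapped and it was not called (log2 change 0.17 ± 0.074, adjusted p = 0.088). It was called without hypoxia replicate 4 (adjusted p = 0.047), with total counts only (log2 change 0.26, adjusted p = 0.017) and, as given above, with the replicate block. With the correction for GC content and length, its log2 change was 0.00099 (adjusted p = 0.99, with or without the replicate block). Prdx5 and Prdx6, with log2 changes of -0.09 and -0.10, were not called (adjusted p = 0.33 and 0.30).

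None of the 4 genes of the pentose phosphate pathway, which turns glucose 6-phosphate into pentose and NADPH, was called. G6pdx (chrX:74409483-74429194, minus strand), the dehydrogenase at its entry, had 78.0, 79.1, 80.0 and 77.6 CPM in hypoxia and 78.3, 66.8, 80.7 and 67.1 CPM in normoxia. Normoxia replicates 2 and 4 lay below the other 6 samples, and the groups overlapped (log2 change -0.11, adjusted p = 0.26). Exons of G6pdx overlap Ikbkg on the opposite strand, which had 13725 counts over all samples against 8875 for G6pdx and a log2 change of 0.47. Pgd, the other NADPH-forming step, ranged from 171 to 211 CPM and from 180 to 220 CPM (log2 change 0.08, adjusted p = 0.45). Taldo1 and Tkt, the enzymes that return pentoses to glycolysis, had log2 changes of -0.03 and -0.05 (adjusted p = 0.85 and 0.58). The standard errors of the 4 log2 changes lay between 0.059 and 0.087.

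Among the glutathione transferases, which join glutathione to reactive compounds, Gsta4 rose and the other 2 were not called. Gsta4 (chr9:78182774-78209349, plus strand), whose enzyme prefers 4-hydroxynonenal and related products of lipid peroxidation, had 7.73, 9.47, 9.76 and 11.5 CPM in hypoxia and 20.7, 18.7, 18.3 and 18.7 CPM in normoxia. All normoxia samples were far above the hypoxia samples (log2 change 0.99 ± 0.12, adjusted p = 0.00014, 1.98-fold). Mgst1, a microsomal transferase, was low in hypoxia replicate 1 at 14.5 CPM and otherwise lay between 20.6 and 26.9 CPM in both groups (log2 change 0.08, adjusted p = 0.75). Gstm1 ranged from 54.4 to 79.4 CPM in hypoxia and from 52.8 to 60.7 CPM in normoxia (log2 change -0.26 ± 0.11, adjusted p = 0.073). It was called without hypoxia replicate 1, its lowest hypoxia sample (log2 change -0.37, adjusted p = 0.0028), and with DESeq2 (adjusted p = 0.048). With the correction for GC content and length, its log2 change was -0.12 (adjusted p = 0.46). The handling of reads that map to several places is not stated, so values of Gstm genes, which are close copies of each other, are uncertain to that extent.

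**Figure D2:**
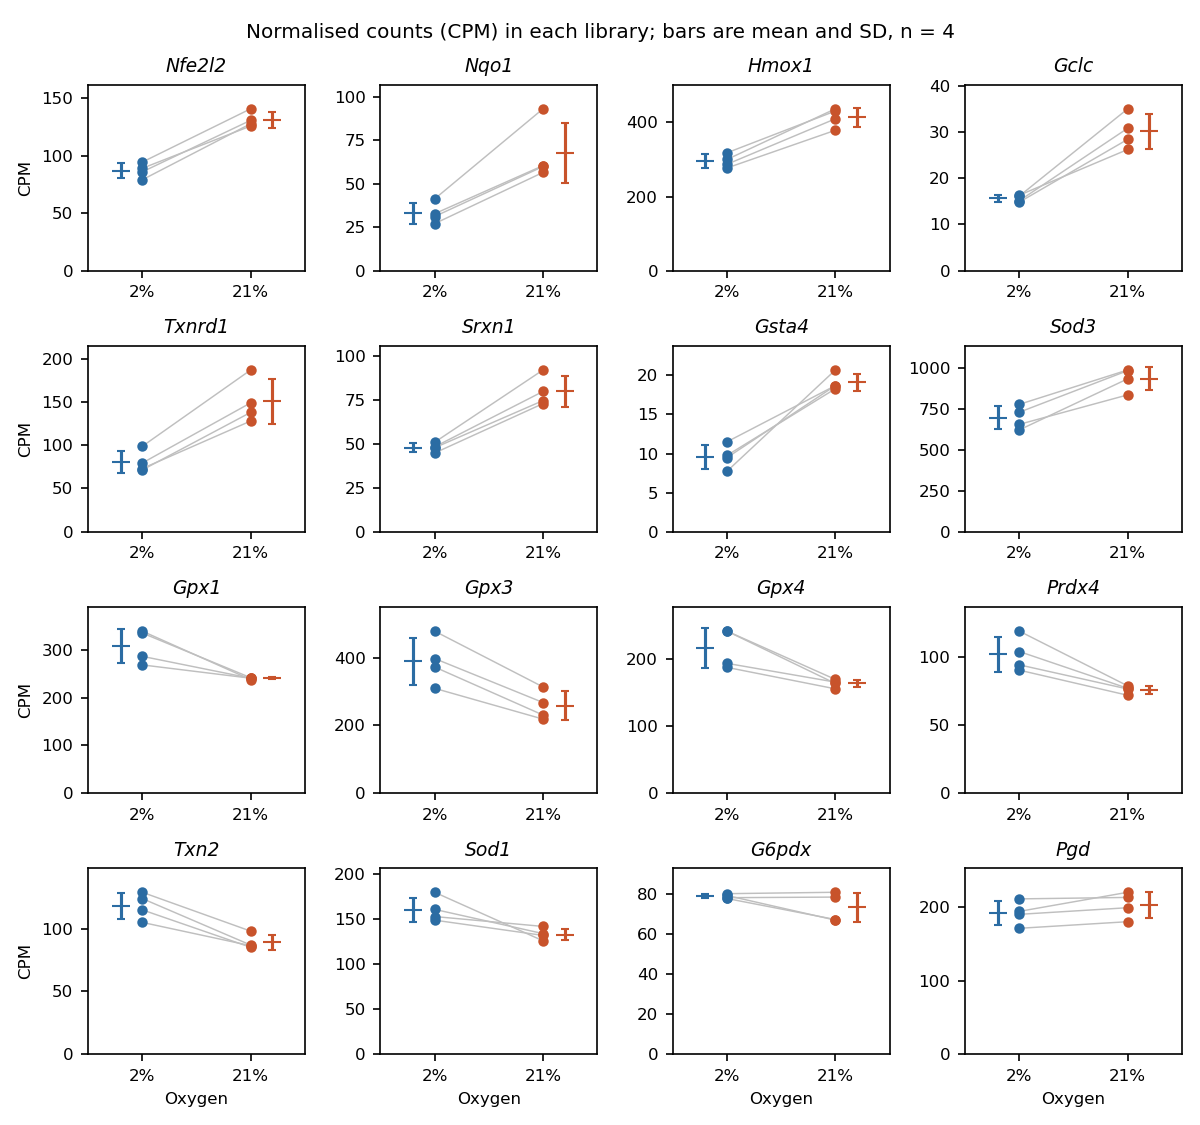
CPM of 16 of the genes in each sample at 2% and 21% oxygen, 1 panel a gene with its own axis from 0; lines join samples with the same replicate number, and bars beside the points are the mean and SD of 4 samples. The top 8 panels rise in every pair and their groups do not overlap, Gpx1, Gpx3, Gpx4, Prdx4, Txn2 and Sod1 fall in every pair, and G6pdx and Pgd overlap.

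**Figure D3:**
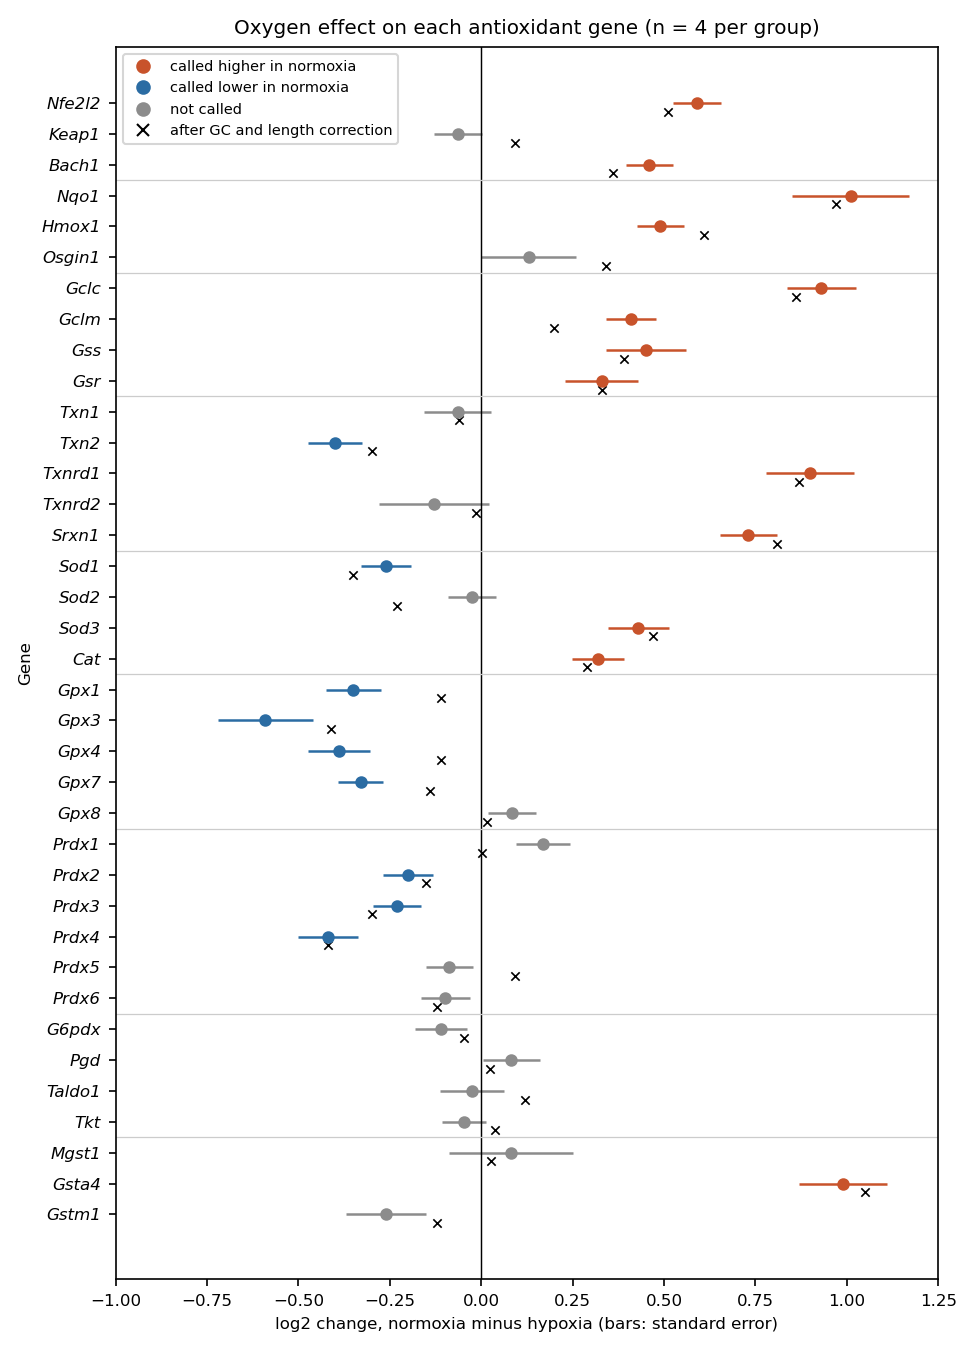
Log2 change (normoxia minus hypoxia) of the 37 genes in order of role, with its standard error as a bar, n = 4 per group; orange points were called higher, blue points lower and grey points were not called, and crosses give the log2 change after the correction for GC content and transcript length. The 13 rises reach 1.01 and the 9 falls reach -0.59, and the crosses of Gpx1, Gpx4 and Gpx7 lie much nearer to 0 than their points.

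Levels between genes were set side by side per length, as CPM per kilobase of exon. In hypoxia the highest were Gpx3 (214), Gpx1 (214), Sod3 (186), Txn1 (175) and Hmox1 (169), and in normoxia Sod3 (250), Hmox1 (237), Txn1 (168), Gpx1 (167) and Prdx1 (150). Gpx3 went from rank 1 to rank 6 of the 37, and Nqo1 from rank 23 (21.2 CPM per kilobase) to rank 12 (43.5). By this measure Sod3 and Hmox1 led in normoxia where the peroxidases Gpx3 and Gpx1 led in hypoxia. The length used joins all exons of a gene, for Gpx4 1724 bases against 995 in its longest transcript. The order of genes therefore depends on the length chosen, and other lengths were not tested. Txnrd2 was the lowest in both groups, at 1.55 and 1.43 CPM per kilobase.

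Ratios of partner genes within a library do not depend on how libraries are scaled, and 8 were compared. The log2 ratio of Gclm to Gclc was 2.15, 2.13, 2.37 and 2.06 in hypoxia replicates 1 to 4 and 1.44, 1.67, 1.71 and 1.80 in normoxia replicates 1 to 4. The modifier subunit thus had less excess over the catalytic subunit in every normoxia sample, by a difference of -0.52. Keap1 to Nfe2l2 differed by -0.66, from -0.75 ± 0.14 to -1.40 ± 0.12 (mean ± SD), and Bach1 to Nfe2l2 by -0.13, from -1.64 ± 0.15 to -1.78 ± 0.11. The first of these put less transcript of the inhibitor beside that of the factor, and the second overlapped between oxygen levels (exact permutation test, two-sided, p = 0.229, adjusted over the 8 ratios 0.261), although it too was lower in normoxia in all 4 pairs.

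The ratios of a mitochondrial to a cytosolic member did not share a direction. Txnrd2 to Txnrd1 differed by -1.02 (from -3.52 ± 0.23 to -4.54 ± 0.31), Prdx3 to Prdx1 by -0.41 and Txn2 to Txn1 by -0.34, whereas Sod2 to Sod1 differed by 0.24. For these 4 ratios, Gclm to Gclc and Keap1 to Nfe2l2 the groups did not overlap, and the two-sided exact permutation test gave p = 0.0286, the smallest that 70 assignments allow, or 0.0381 adjusted over the 8 ratios. All 4 pairs of same-numbered samples moved the same way in each of these 6 and in Bach1 to Nfe2l2, and the paired sign-flip test, an exact permutation within pairs, gave p = 0.125 for all 7, the smallest that 4 pairs allow. Gpx1 to Gpx4, both selenium-dependent and both lower in normoxia, differed by 0.05 (exact permutation p = 0.314), less than the SD of 0.066 in hypoxia. Partners can differ in GC content, and with the correction for GC content and length, applied to the ratios after the data were seen, Keap1 to Nfe2l2 differed by -0.42 and Sod2 to Sod1 by 0.12. The groups of Sod2 to Sod1 then overlapped (exact permutation p = 0.0857), while the other 5 ratios that were apart kept p = 0.0286.

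**Figure D4:**
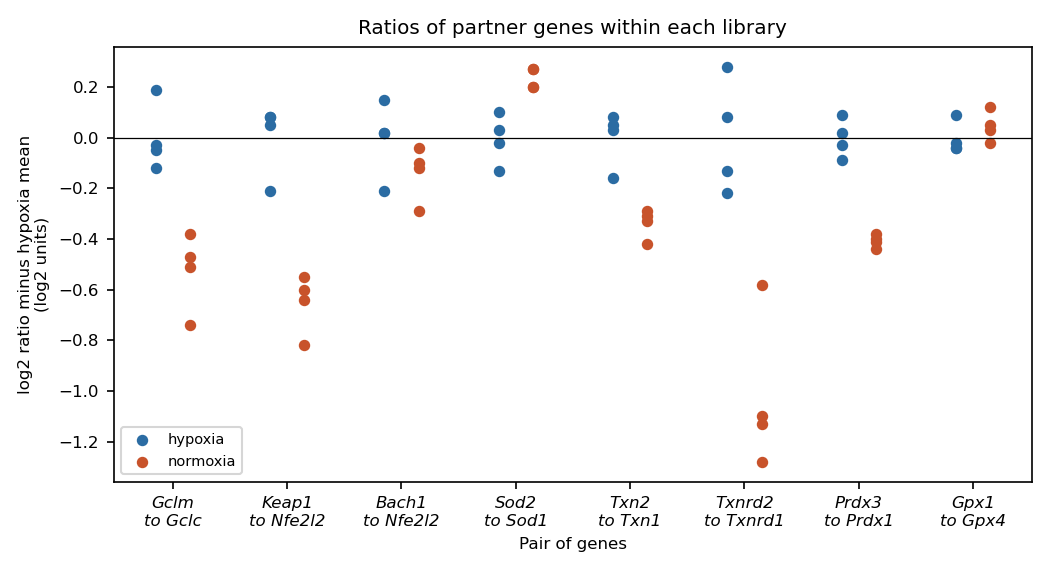
Log2 ratio of 8 pairs of partner genes in each sample, after subtracting the mean of the 4 hypoxia samples (blue, hypoxia; orange, normoxia; 1 point a sample, vertical axis in log2 units). Normoxia samples lie below hypoxia samples for 5 pairs of genes and above for Sod2 to Sod1, and they overlap for Bach1 to Nfe2l2 and Gpx1 to Gpx4.

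Grouped by place, the 4 mitochondrial members (Sod2, Txn2, Txnrd2 and Prdx3) had 2 falls, no rise and a median log2 change of -0.18. Of the 5 secreted or endoplasmic reticulum members (Sod3, Gpx3, Gpx7, Gpx8 and Prdx4), 3 fell and Sod3 alone rose. Of the 5 selenoproteins (Gpx1, Gpx3, Gpx4, Txnrd1 and Txnrd2), 3 fell and Txnrd1 rose, with a median of -0.35. The correction for GC content and length moved this median to -0.11 and ended the calls of all 3 falls. With the replicate block added to the correction, 2 of them, Gpx1 and Gpx3, were called. These groups share members with the families above and were read only as counts, where 16.5% of all genes tested were lower and 18.0% higher.

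Change and GC content of the transcript went together across genes. Ranks of GC content and of the log2 change had a Spearman correlation of -0.39 over 14353 genes and of -0.39 over the 37 genes of the set, a description across genes that share 8 libraries. The median log2 change went from 0.23 in the decile of genes with the lowest GC content to -0.23 in that with the highest, and GC content in the set ran from 42.1% in Gclm to 60.2% in Gpx4. After a spline correction for GC content and transcript length, 12 genes of the set were higher and 5 lower. That fit called 15.1% of all genes tested higher and 14.4% lower. Among the peroxidases the log2 change went to -0.11 for Gpx1 (adjusted p = 0.15), -0.41 for Gpx3 (0.053), -0.11 for Gpx4 (0.21), -0.14 for Gpx7 (0.11) and -0.15 for Prdx2 (0.075), and all 5 calls were lost. The Gclm call was lost as well, while Sod2 was called lower (log2 change -0.23, adjusted p = 0.036).

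With the replicate block added to the correction, 14 genes were higher and 8 lower. In this fit 21.7% of all genes tested were called higher and 21.5% lower. Gpx4 (adjusted p = 0.053) and Gpx7 (0.051) then missed the threshold, Gpx1 (0.044), Gpx3 (5e-09) and Prdx2 (0.0095) were called in this paired fit, and Osgin1 was called higher (log2 change 0.34, adjusted p = 0.036). Real changes that track GC content or length are taken out by this correction too, and the part of GC content in the falls of the peroxidases was not tested beyond it. Nfe2l2, Bach1, Nqo1, Hmox1, Gclc, Gss, Txnrd1, Srxn1, Sod3, Cat and Gsta4 among the rises, and Txn2 and Prdx4 among the falls, were called in all 22 alternatives, this correction included.

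**Figure D5:**
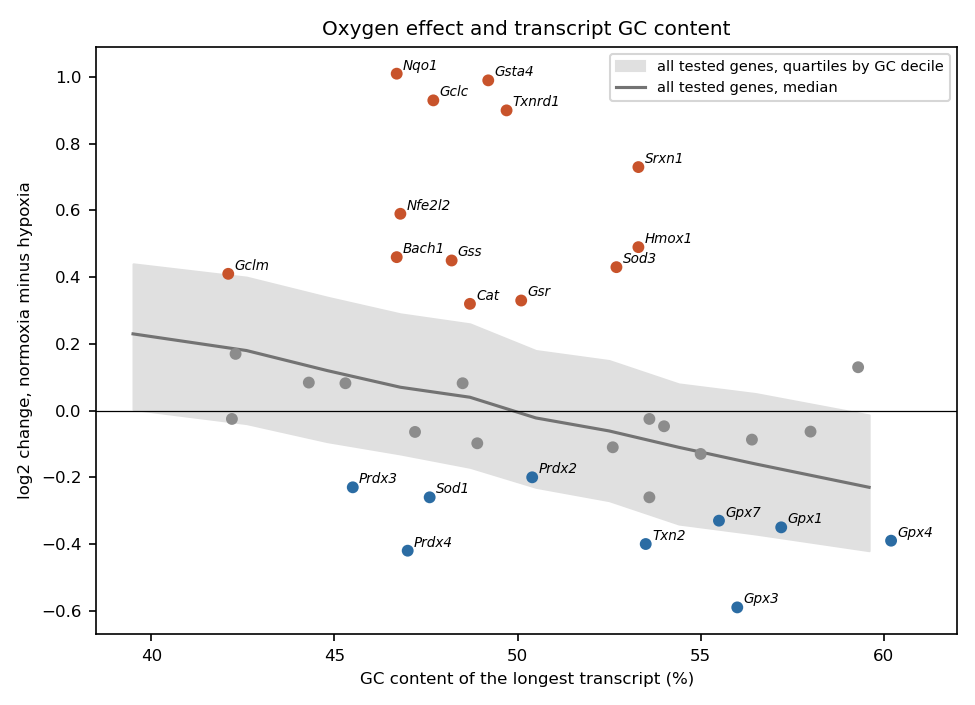
Log2 change (normoxia minus hypoxia) of the 37 genes against the GC content of their longest transcript in percent (orange, called higher; blue, called lower; grey, not called); the grey line and band are the median and quartiles of all genes tested, by decile of GC content. Nqo1, Gsta4, Gclc, Txnrd1 and Srxn1 lie far above the band, Prdx4, Sod1 and Prdx3 lie below it at low GC content, Gpx1 and Gpx7 lie within it, and Gpx4 lies just past its right end.

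Other genes of redox metabolism were listed by role for comparison, 115 in all, of which 109 were tested. Of these, 23 were higher and 22 lower (21.1% and 20.2%), near the 18.0% and 16.5% of all genes tested. The replicate block moved the lower count to 34 and gave 28 higher in the paired fit. That fit called 22.7% of all genes tested lower and 23.3% higher. A list of 9 genes held partners of NRF2, genes of its degradation, and Nfe2l1 and Bach2, relatives of Nfe2l2 and Bach1. Of these, Maff, Mafk, Nfe2l1 and Cul3 rose (44.4%, against 18.0% of all genes tested). None fell, and the replicate block added a fall of Gsk3b (log2 change -0.18, adjusted p = 0.017). Nfe2l1 was near the threshold (log2 change 0.18, adjusted p = 0.043) and missed it in edgeR's quasi-likelihood test (adjusted p = 0.053). Maff, a small MAF partner, went from 17.8, 10.1, 13.1 and 10.2 CPM in hypoxia to 41.7, 26.6, 27.9 and 21.4 CPM in normoxia (log2 change 1.18 ± 0.21, adjusted p = 0.0011), and Mafk rose by 0.72 (adjusted p = 0.00034). Both genes had their groups apart, and the highest value of each gene in either group was that of replicate 1. Cul3, a part of the ligase that marks NRF2 for degradation, rose by 0.42 (adjusted p = 0.0009), and the correction for GC content and length moved it to 0.17 (adjusted p = 0.051).

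Among 16 other NRF2 targets, 3 rose and 2 fell (18.8% and 12.5%, near the shares of all genes tested). The largest rise was that of Aldh3a1, an aldehyde dehydrogenase, from 1.59, 1.44, 0.859 and 1.70 CPM to 4.60, 3.96, 4.33 and 3.62 CPM (log2 change 1.46 ± 0.21, adjusted p = 0.00035). Counts of Aldh3a1 were few, at most 62 in a sample, but the groups did not overlap. Slc7a11, the cystine importer that feeds glutathione synthesis, had 22.7, 14.6, 14.5 and 11.3 CPM in hypoxia and 17.5, 9.58, 12.3 and 13.6 CPM in normoxia and was not called (log2 change -0.23 ± 0.21, adjusted p = 0.42). Fth1, the ferritin heavy chain, was not called either (log2 change 0.16, adjusted p = 0.11), although it was with the replicate block (adjusted p = 0.023).

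Of 22 other tested genes for glutathione transferases and glutathione turnover, 8 were lower (36.4%, against 16.5% of all genes tested) and none was higher. The paired fit with the replicate block gave 13 lower and 2 higher, against 22.7% and 23.3% of all genes tested. The largest of these falls were Gstm7 (log2 change -0.87, adjusted p = 0.0093), Gstt2 (-0.75, 0.0063) and Gstm6 (-0.69, 0.043). These 3 had at most 6.71 CPM in any sample, whereas Gsta4 among the members rose. A list of 15 other genes for NADPH supply included Rpe, Rpia and Pgls, pentose phosphate enzymes that do not themselves form NADPH. In it 3 rose (Rpe, Me1 and Mthfd1) and 3 fell (Pgls, Nnt and Aldh1l1). Among all genes tested, the shares were 18.0% higher and 16.5% lower. Me1, the cytosolic malic enzyme, rose by 0.31 on the log2 scale (adjusted p = 0.0025), Nnt, the mitochondrial transhydrogenase, had a log2 change of -0.35 (adjusted p = 0.00081), and Aldh1l1, which makes NADPH from formyl-tetrahydrofolate, one of -0.97 (adjusted p = 0.00035). Idh1 was not called (log2 change 0.12, adjusted p = 0.31).

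Of 13 tested enzymes that make superoxide or hydrogen peroxide, 3 rose and 2 fell (23.1% and 15.4%, against 18.0% and 16.5% of all genes tested). Xdh, the xanthine dehydrogenase, and Aox1, the aldehyde oxidase, rose by 0.62 (adjusted p = 0.0018) and 0.56 (adjusted p = 0.0068). The monoamine oxidases of mitochondria went apart, as Maoa rose by 0.46 (adjusted p = 0.00023) and Maob changed by -0.76 (adjusted p = 0.0046). Nox4 was not called (0.23, adjusted p = 0.18). Among 20 other thiol oxidoreductases 6 rose and 4 fell, one of the latter Txnip, the thioredoxin inhibitor (log2 change -0.29, adjusted p = 0.045). The 14 genes of selenoprotein synthesis and other selenoproteins had 4 rises and 3 falls (28.6% and 21.4%, against 18.0% and 16.5% of all genes tested).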

How the data were processed

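RNA-seq libraries of 4 hypoxia and 4 normoxia samples were sequenced by the authors as single-end reads and processed with zUMIs, STAR, samtools and featureCounts on mm10 with Ensembl annotation. The authors deposited raw counts per gene, which are whole numbers and not normalized. Use of strand, introns or multi-mapping reads is not given in the sources used here. Symbols, positions and transcripts came from GENCODE M21 (GRCm38), and promoters from RefSeq.

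As in the study, low genes were removed by filterByExpr (edgeR 4.0.16) at a minimum count of 5, leaving 14369 of 53465 genes with 99.9% of the counts. TMM-scaled log2 CPM with a prior count of 3 were fitted with limma-trend (limma 3.58.1, R 4.3.3), with Benjamini-Hochberg adjustment over all genes and a threshold of 0.05. Log2 changes understate those of genes with few counts. Levels are TMM-scaled CPM, and 3 counts correspond to at most 0.241 CPM, which covers counting error only. Ratios were compared by exact permutation tests.

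The numbers 1 to 4 occur in both groups. Deviations of same-numbered samples from their group means correlated across genes at 0.474, 0.275, 0.249 and 0.172, and the study divides sorted cells between oxygen levels, so the numbers were taken to pair the samples, and a second fit had the replicate block. The study calls the samples of a group independent biological replicates.

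Alternatives were edgeR's quasi-likelihood test, DESeq2 1.42.0, limma-voom, other scalings, filters and prior count, a correction for GC content and length (natural splines, 5 degrees of freedom), and leaving out samples. The method was tested on simulated data. The 37 genes, the other lists and the tests were chosen with earlier results of these data known. Values are given for every sample for members called and for the central genes of each role, and of the other pathway genes the 5 largest rises and falls and 7 chosen by name are given. Any other gene was named after its values were seen.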

Additional observations from a re-analysis of the deposited data

Results flagged for a closer look

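In 9 of 90 sets of 4 values (each gene or ratio in each group), the highest or lowest sample stood further from the other 3 than Dixon's 95% limit of 0.829 allows, measured as its gap over the range. Chance gives about 4.5 of 90. Nqo1 was high in normoxia replicate 1 (gap share 0.864, log2 CPM of 6.54 against 5.82 to 5.92), and Txn2 was high in the same sample (0.852, 6.62 against 6.41 to 6.44). In hypoxia replicate 2, Gsr was high (0.829, 4.46 against 4.09 to 4.15), whereas Txnrd2 (0.853, 2.54 against 2.87 to 2.93) and Sod2 (0.964, 5.54 against 5.71) were low. In hypoxia replicate 1, Mgst1 was low (0.856, 3.87 against 4.63 to 4.76), the log2 ratio of Keap1 to Nfe2l2 was low (0.876, -0.96 against -0.70 to -0.67) and that of Gpx1 to Gpx4 was high (0.855, 0.61 against 0.48 to 0.50). Gpx8 was low in normoxia replicate 3 (0.882, 6.93 against 7.03 to 7.04).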

How the results depend on the processing

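In the 22 alternatives, 13 of the 22 called genes of the set were called each time, and no called gene changed sign. The lower count went from 9 to 5 with the GC and length correction, which called 14.4% of all genes tested lower. The lower count of the other pathway genes went from 22 to 34 with the replicate block, and to 34 with the replicate block when both samples numbered 1 were left out. With the GC and length correction of the ratios, added after the data were seen, Sod2 to Sod1 went from 0.24 to 0.12 (exact permutation p = 0.0857) and Gpx1 to Gpx4 to -0.00097. Among genes, signs turned only in those that were not called. With total counts only these were Keap1 (log2 change 0.025), Txn1 (0.024), Sod2 (0.063), Prdx5 (0.0014), Taldo1 (0.063) and Tkt (0.042). With the GC and length correction, with or without the replicate block, they were Keap1 (0.093), Prdx5 (0.091), Taldo1 (0.12) and Tkt (0.038). Without both samples numbered 1, in the paired fit too, it was Mgst1 (-0.065). Leaving out each sample in turn gave -0.13 to 0.17 for Mgst1 and -0.089 to 0.047 for Taldo1, and 8 to 9 lower and 12 to 13 higher genes in the set. Beyond the changes given with Prdx1 and Gstm1, and with the other pathway genes, the replicate block changed no call in the set. The causes of these moves were not tested. Txnrd2, with 771 counts over all samples, had the least precise low level.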
